A study of Homo sapiens with 6 samples.

Results

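Heat shock chaperones were compared between cells labelled as carrying MALT1 cDNA and cells labelled as carrying the vector alone, for 10 genes: the small heat shock proteins HSPB1 and HSPB8, the HSP70 family genes HSPA2, HSPA6 and HSPA8, the HSP90 genes HSP90AA1 and HSP90AB1, and HSPD1, HSPH1 and DNAJB1. All probe sets whose annotation holds a single gene symbol from this set were used, which gave 17 of the 22215 probe sets tested and 9 of the 10 genes. HSPA8, the constitutive HSP70 of the cytosol, has 3 probe sets on the array, but all of them also carry the symbols SNORD14C and SNORD14D, small nucleolar RNAs encoded inside HSPA8, so no value is given for it. HSPD1 is the HSP60 chaperonin of the mitochondrial matrix rather than a cytosolic protein, and it is kept here as a member and named as mitochondrial.

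By their labels, the samples are 6 arrays of total RNA from HSC2, an established human oral squamous carcinoma line, grown in DMEM with fetal bovine serum. The cells of 3 arrays are described as stably transfected with full-length wild-type MALT1, a paracaspase of NF-kappaB signalling, and are labelled MALT1. Those of the other 3 are described as stably transfected with the empty vector and are labelled mock. The promoter of the vector and the number of clones behind each line are not given in the labels, and neither is whether the arrays of a group came from separate cultures, so that the p-values cover the spread among these 6 samples alone, some of which may be technical.

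Chaperones hold unfolded proteins and help them to fold. Small heat shock proteins bind unfolding proteins without ATP, HSP70 proteins then refold them in cycles started by HSP40 proteins such as DNAJB1 and reset by nucleotide exchange factors such as HSPH1, and HSP90 proteins finish kinases, steroid receptors and other clients. Under heat or other proteotoxic stress, heat shock factor 1 binds heat shock elements in the promoters of many of these genes and raises their transcription, whereas several members are also transcribed at high rates without stress in epithelial and tumour cells.

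The MALT1 transcript was lower on the arrays labelled MALT1, in all 3 of its probe sets, of which 2 passed, and the largest difference was 119.7 ± 11.3 against 254 ± 25.0 on those labelled mock (SD, n = 3 each; log2 fold change −1.08 ± 0.12 SE, limma adjusted p = 0.00220), so each group goes by its label here. Of 12 luminal breast epithelium markers, 12 were higher on the arrays labelled MALT1, with summed signals of 79007 to 87997 against 8976 to 9737 on those labelled mock, while 8 of 8 measured squamous epithelium markers were lower, at 6892 to 6940 against 33306 to 35398. No marker of either list was at or below 17.6 on all 6 arrays, a level set by the brightest trp probe set, a bacterial control. KRT19, FOXA1, TFF1 and SPDEF, all luminal, lay at or below that level on all 3 arrays labelled mock. SERPINB13, a squamous marker, did so on all 3 arrays labelled MALT1. KRT18, at a mean of 6963, made up most of the luminal sum on the arrays labelled mock. By marker, KRT18 was 2.66-fold higher and TFF1 at least 878-fold. Of the 6 fibroblast, 4 leukocyte and 4 endothelial markers measured, 1, 1 and 0 passed the limma test, each of them lower (with 0 endothelial markers at an unadjusted p under 0.05 as well), and 0, 2 and 3 of them lay at or below 17.6 on all 6 arrays. The leukocyte marker that passed was LCP1, an actin bundler that other cells also express, at 106 ± 15.7 against 334 ± 13.3 (SD, n = 3 each), while the pan-leukocyte marker PTPRC read 13.2 ± 4.86 against 10.1 ± 2.51. MALT1 replicate 3 stood apart, with a median signal of 79.0 against 64.1 to 70.6 on the other arrays, 25.6% of probe sets at or below 17.6 against 31.7% to 33.3%, and an ACTB 3′ to 5′ signal ratio of 4.46 against 3.59 to 3.98. Without it, 8 of the 17 chaperone probe sets passed. The cell line and the transfections are known here from the labels alone, and the identity of the cells in each group was not tested. The part of the marker differences in the chaperone results was not tested either. In bulk RNA, fewer cells of a type and less RNA per cell cannot be told apart.

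Over all chaperone probe sets, 9 of 17 (52.9%) differed at an adjusted p under 0.05, 6 of them higher and 3 lower in the group labelled MALT1. Among all probe sets 35.6% passed, 18.6% higher and 17.0% lower. In a fit of the brighter probe sets alone, 10 of 15 chaperone probe sets passed, beside 7659 of all 11107, a similar share. The groups did not overlap in 11 of the 17, beside 49.7% of all probe sets. The median log2 fold change was 0.16 for the 17 and 0.08 for all 22215 probe sets. By gene, HSPB1, HSPB8, HSP90AB1 and HSPD1 were higher in every probe set, HSPA2 and HSPH1 were lower in every probe set, and HSP90AA1, DNAJB1 and HSPA6 passed in none. Only HSPB1 and HSPB8 passed with a change of at least 2-fold, as 18.0% of all probe sets did.

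**Figure D1:**
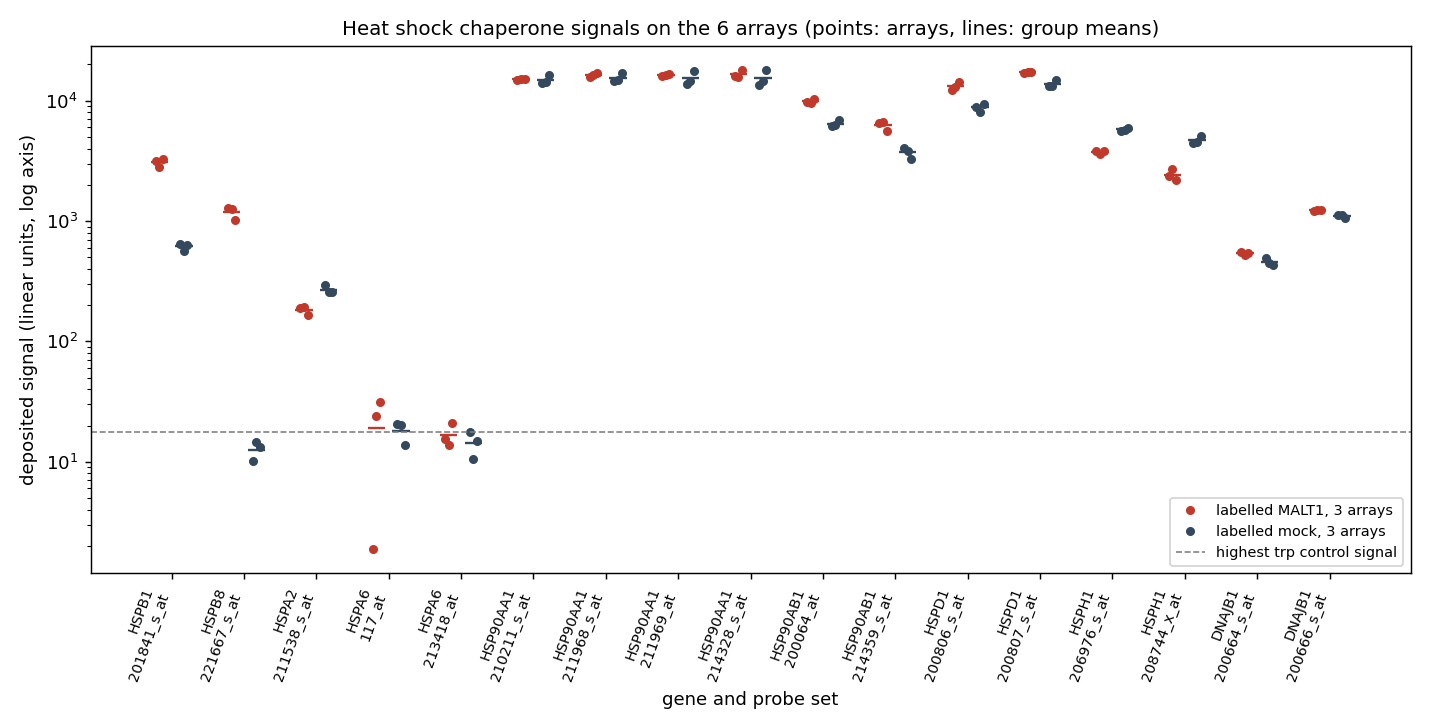
Deposited signal of each chaperone probe set (log axis) on the 3 arrays labelled MALT1 (left of each pair, red) and the 3 labelled mock (right, dark), with group means as lines and the trp level of 17.6 dashed. HSPB8 lies at 1019 to 1279 on the arrays labelled MALT1 and below the dashed line on those labelled mock, whereas the 4 HSP90AA1 probe sets overlap near the top of the scale.

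The small heat shock proteins showed the largest differences among the 17 probe sets. HSPB8, which works with BAG3 and HSP70 to steer misfolded proteins into autophagy, read 1279, 1263 and 1019 on the arrays labelled MALT1, against 10.1, 14.7 and 13.2 on those labelled mock. The groups were far apart, and all 3 arrays labelled mock lay at or below the trp level of 17.6, so that only a bound can be given. HSPB8 was at least 66.9-fold higher (adjusted p = 5.3e-05). HSPB1, the small heat shock protein known as HSP27, an ATP-independent holdase that also binds actin, read 3161, 2834 and 3255 against 645, 569 and 631. It was thus well above the trp level in both groups, and the lowest array labelled MALT1 stood clear of the highest array labelled mock. HSPB1 rose 5.01-fold (log2 fold change 2.32 ± 0.10 SE, limma adjusted p = 1.2e-04).

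No other listed small heat shock protein passed. Of 6 measured (HSPB2, HSPB3, HSPB6, HSPB7, CRYAA and CRYAB), 0 passed in either direction by limma, with 0 at an unadjusted p under 0.05 among them and a median log2 fold change of 0.02, and 3 lay at or below 17.6 on all 6 arrays. CRYAB, the alpha B crystallin, read 19.7 ± 24.6 against 17.7 ± 19.0 (SD, n = 3 each). None of the 6 exceeded 48.2 on any array. BAG3, the partner of HSPB8, stood at 4152 ± 142 against 4206 ± 233 (log2 fold change −0.02 ± 0.09 SE, limma adjusted p = 0.906).

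The promoters of both genes are shown because they carry the 2 largest changes and can be read for heat shock elements. A heat shock element is a row of alternating GAA and TTC units, each parted by 2 bases. The search covered the 300 bases that RefSeq gives around each transcript start in GRCh38.p14 (250 before and 50 after) on both strands, for 3 units (TTCNNGAANNTTC or GAANNTTCNNGAA) and for 2 units (TTCNNGAA or GAANNTTC). Every match of 3 contains overlapping matches of 2. Of 35116 windows, 0.490% held 3 units and 13.5% held 2. The 250 bases before each start are printed 5′ to 3′ in lower case with matches of 2 units in capitals, HSPB1 from chr7:76302423-76302672 and HSPB8 from chr12:119178681-119178930, both on the plus strand.
HSPB1: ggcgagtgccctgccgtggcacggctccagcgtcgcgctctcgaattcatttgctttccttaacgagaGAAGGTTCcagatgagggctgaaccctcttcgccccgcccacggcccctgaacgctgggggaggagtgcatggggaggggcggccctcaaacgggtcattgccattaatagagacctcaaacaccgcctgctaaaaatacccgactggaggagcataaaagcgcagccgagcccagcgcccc
HSPB8: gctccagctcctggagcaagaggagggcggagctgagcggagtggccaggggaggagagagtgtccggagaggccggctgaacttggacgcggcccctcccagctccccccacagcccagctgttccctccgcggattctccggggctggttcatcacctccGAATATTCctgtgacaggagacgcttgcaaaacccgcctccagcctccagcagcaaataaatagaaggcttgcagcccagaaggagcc
Neither window held a match of 3 units. HSPB1 had 1 match of 2 units, from 182 to 175 bases before its start, and HSPB8 had 1 from 88 to 81 bases before it and another just inside the transcript. A match is a description of these letters, and binding was not measured.

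Among the members, the HSP70 genes that could be read were low or lower. HSPA2, an HSP70 best known from spermatocytes, read 188, 193 and 165 on the arrays labelled MALT1, against 296, 255 and 259 on those labelled mock. Every array labelled MALT1 was below every array labelled mock. HSPA2 fell 1.48-fold (log2 fold change −0.56 ± 0.11 SE, limma adjusted p = 0.0147), a call lost with a block on the replicate number (adjusted p = 0.0511). HSPA6, the HSP70 that human cells make almost only under severe stress, read near the level of the bacterial controls, with 117_at above 17.6 on 4 of the 6 arrays and 213418_at on 2. Its probe set 117_at read 1.88, 24.1 and 31.6 against 20.4, 20.3 and 13.7, and its probe set 213418_at read 15.4, 13.8 and 20.9 against 17.8, 10.5 and 14.9. The groups overlapped in both probe sets, which passed under none of the alternatives in which they were fitted, and no fold is given. The value of 1.88 on MALT1 replicate 1 decides the sign of 117_at, whose log2 difference was −0.50 with it and 0.60 without it (adjusted p = 0.747 and 0.160).

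The HSP90 genes parted, with the constitutive HSP90AB1 higher and the stress-inducible HSP90AA1 not shown to differ. HSP90AB1 read 9676, 9496 and 10372 on the arrays labelled MALT1 against 6121, 6317 and 6910.2 on those labelled mock in probe set 200064_at. In 214359_s_at it read 6512, 6596 and 5616 against 4029, 3837 and 3283. Neither probe set overlapped between the groups. The rise was 1.53-fold (log2 fold change 0.61 ± 0.09 SE, limma adjusted p = 0.00576) and 1.68-fold (log2 fold change 0.75 ± 0.13 SE, limma adjusted p = 0.00803), and it passed under all 12 alternatives.

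HSP90AA1 was among the brightest transcripts on every array, with at most 0.495% of probe sets brighter than any of its 4 probe sets. Its probe set 214328_s_at read 16185, 15718 and 18020.3 on the arrays labelled MALT1, against 13577, 14601 and 17905 on those labelled mock. The groups overlapped, because mock replicate 3 lay above 2 of the 3 arrays labelled MALT1, and the same array was the highest of its group in the other 3 probe sets. The 4 log2 fold changes were 0.03, 0.08, 0.10 and 0.12 (adjusted p = 0.852, 0.606, 0.578 and 0.558), and the 95% intervals together ran from −0.23 to 0.48. Changes of up to that size therefore remain possible. Without mock replicate 3 the values were 0.10, 0.14, 0.20 and 0.24, and none passed (adjusted p = 0.474, 0.350, 0.195 and 0.213). After median centring all 4 values were at or below 0, from −0.10 to −0.01, so that no direction can be given.

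The difference between the 2 HSP90 genes held within each array. The log2 ratio of HSP90AA1 to HSP90AB1 signal was 0.74, 0.73 and 0.80 on the arrays labelled MALT1 and 1.15, 1.21 and 1.37 on those labelled mock, with no overlap. The shift was −0.49 on the log2 scale, a factor of 1.40 (exact permutation p = 0.10, two-sided, adjusted p = 0.10 over 2 pairs), where 0.10 is the smallest p that 3 arrays against 3 allow. With the mean of all probe sets of each gene it was −0.60. The 4 HSP90AA1 probe sets lay close to the highest signals of the arrays, which were 18105 to 24329, and how far the array can still show a rise there was not tested.

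HSPD1, the mitochondrial HSP60 that folds imported proteins in the matrix, was higher. Probe set 200806_s_at read 12352, 13050.5 and 14207 on the arrays labelled MALT1 against 8942, 8028 and 9364 on those labelled mock, a 1.50-fold rise (log2 fold change 0.59 ± 0.11 SE, limma adjusted p = 0.0105). The brighter 200807_s_at read 17070.3, 17269.9 and 17333 against 13291, 13305 and 14882, a 1.25-fold rise (log2 fold change 0.32 ± 0.09 SE, limma adjusted p = 0.0415). At most 0.441% of probe sets were brighter than 200807_s_at on any array. How far the array can still show a rise at that level was not tested. Both probe sets were free of overlap, but they differ in stability. The first passed under all 12 alternatives, while the second passed in 4 of 12 and missed the threshold after quantile normalization (adjusted p = 0.134), after median centring (adjusted p = 0.309), with the replicate block (adjusted p = 0.114) and without any of 5 single arrays (adjusted p = 0.0825 to 0.133). HSPE1, the HSP10 lid of the same chaperonin, read 8252 ± 621 against 6081 ± 514 (SD, n = 3 each; log2 fold change 0.44 ± 0.11 SE, limma adjusted p = 0.0317). HSPE1 and TRAP1, the mitochondrial HSP90, were the 2 higher genes of the organelle list described below. That list held 1 higher gene after quantile normalization, after median centring, with the replicate block and without any single array but MALT1 replicate 3.

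HSPH1, the HSP110 protein that exchanges nucleotide on HSP70 and helps to dissolve aggregates, was lower in both of its probe sets. Probe set 206976_s_at read 3817, 3597 and 3810.1 on the arrays labelled MALT1 against 5632, 5735 and 5939.5 on those labelled mock. In 208744_x_at it read 2348, 2726 and 2207 against 4476, 4500.1 and 5136. No array labelled MALT1 reached the lowest array labelled mock. The fall was 1.54-fold (log2 fold change −0.62 ± 0.08 SE, limma adjusted p = 0.00320) and 1.94-fold (log2 fold change −0.96 ± 0.12 SE, limma adjusted p = 0.00314), and both passed under all 12 alternatives.

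DNAJB1, the HSP40 that delivers unfolded proteins to HSP70 and a common readout of heat shock factor 1, did not pass. Probe set 200664_s_at read 551, 524 and 541 on the arrays labelled MALT1 against 494, 445 and 433 on those labelled mock, and 200666_s_at read 1207, 1242 and 1228 against 1117, 1121 and 1053. The arrays labelled MALT1 were above all those labelled mock in both, yet the differences were small, at log2 fold changes of 0.24 ± 0.09 SE and 0.16 ± 0.08 SE, and neither passed (adjusted p = 0.106 and 0.188). Their 95% intervals ended at 0.47 and 0.36. The first passed after quantile normalization (adjusted p = 0.0456), with the floor for dim signals (adjusted p = 0.0354) and in a fit of the brighter probe sets alone (adjusted p = 0.0260), and the second with the floor (adjusted p = 0.0157). After median centring they were 0.11 and 0.03.

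**Figure D2:**
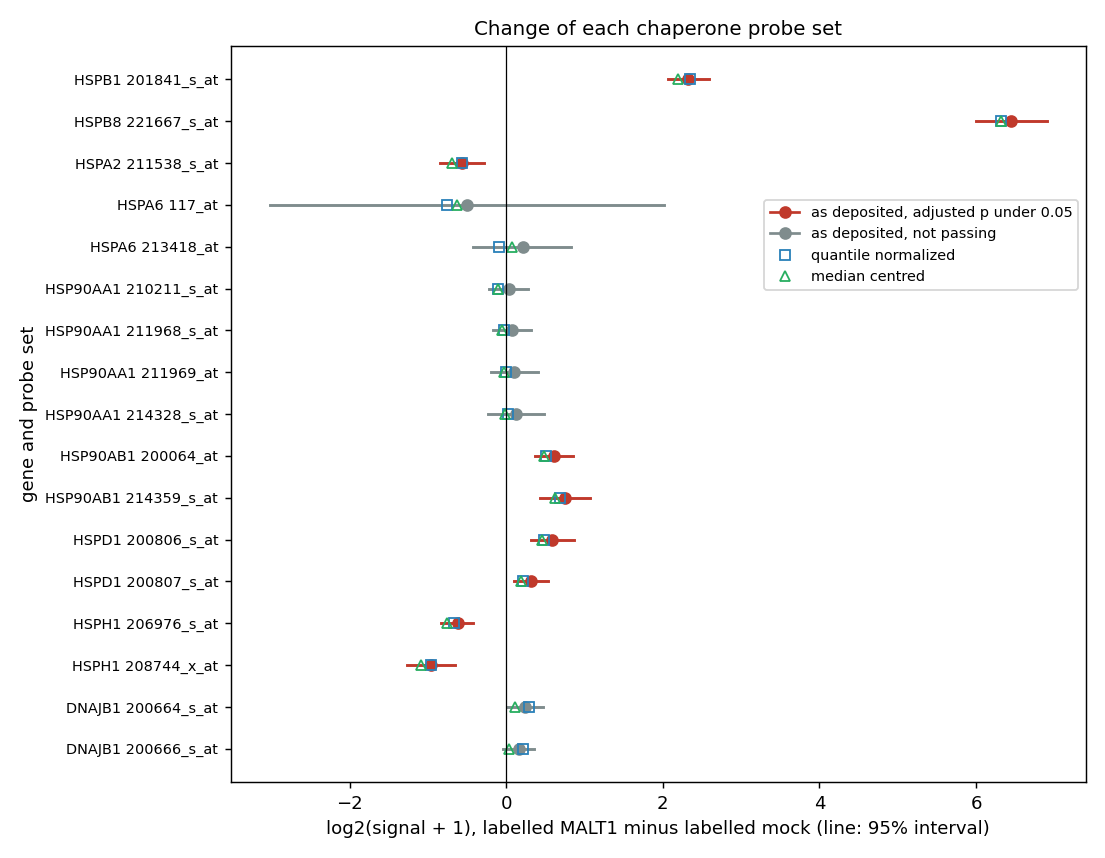
Difference in log2(signal + 1), labelled MALT1 minus labelled mock, for each chaperone probe set with its 95% interval, beside the same difference after quantile normalization and after median centring. HSPB8 and HSPB1 lie far right, HSP90AB1 and HSPD1 at 0.32 to 0.75, HSPH1 and HSPA2 at −0.96 to −0.56, and HSP90AA1 at 0.03 to 0.12. The HSPB8 value rests on dim signals in the group labelled mock and is no measure of size beyond the bound in the text.

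Promoter windows with 3 heat shock units were found for members that differed and for members that did not. HSPA6, HSPA8, HSP90AA1, HSP90AB1 and HSPD1 held such a match in at least 1 of their RefSeq windows, HSPB1, HSPB8 and DNAJB1 held 2 units only, and HSPA2 and HSPH1 held none. Counted the same way over 27305 genes, 0.608% held 3 units and 16.2% held 2. Of the 4 genes higher on the arrays labelled MALT1, HSP90AB1 and HSPD1 thus had 3 units and HSPB1 and HSPB8 did not. HSP90AB1 held 2 separate matches of 3 units, at positions −165 to −153 and −112 to −100 from the last of its 3 starts. The matches of HSP90AA1 and HSPD1 each lay at the last of 2 starts. The stretches below show matches of 3 units in capitals, for HSP90AB1 only the more distant one, for HSPA6 (chr1:161524443-161524502, plus strand), HSP90AA1 (chr14:102087096-102087155, minus strand), HSP90AB1 (chr6:44247770-44247799, plus strand) and HSPD1 (chr2:197500061-197500090, minus strand), all in GRCh38.p14 and 5′ to 3′ on the strand of the gene. They allow the stress-inducible HSPA6 to be set beside members with high signal in both groups.
HSPA6: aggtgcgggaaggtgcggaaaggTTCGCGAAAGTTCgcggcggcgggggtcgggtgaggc
HSP90AA1: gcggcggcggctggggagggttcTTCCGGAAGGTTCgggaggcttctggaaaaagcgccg
HSP90AB1: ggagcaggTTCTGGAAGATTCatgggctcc
HSPD1: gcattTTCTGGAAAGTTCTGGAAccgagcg
In HSPD1 a pair of overlapping matches forms a longer row of units. That HSPA6 holds the same kind of match and read at most 31.6 is a description, and nothing follows from a match or its absence about the factor.

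**Figure D3:**
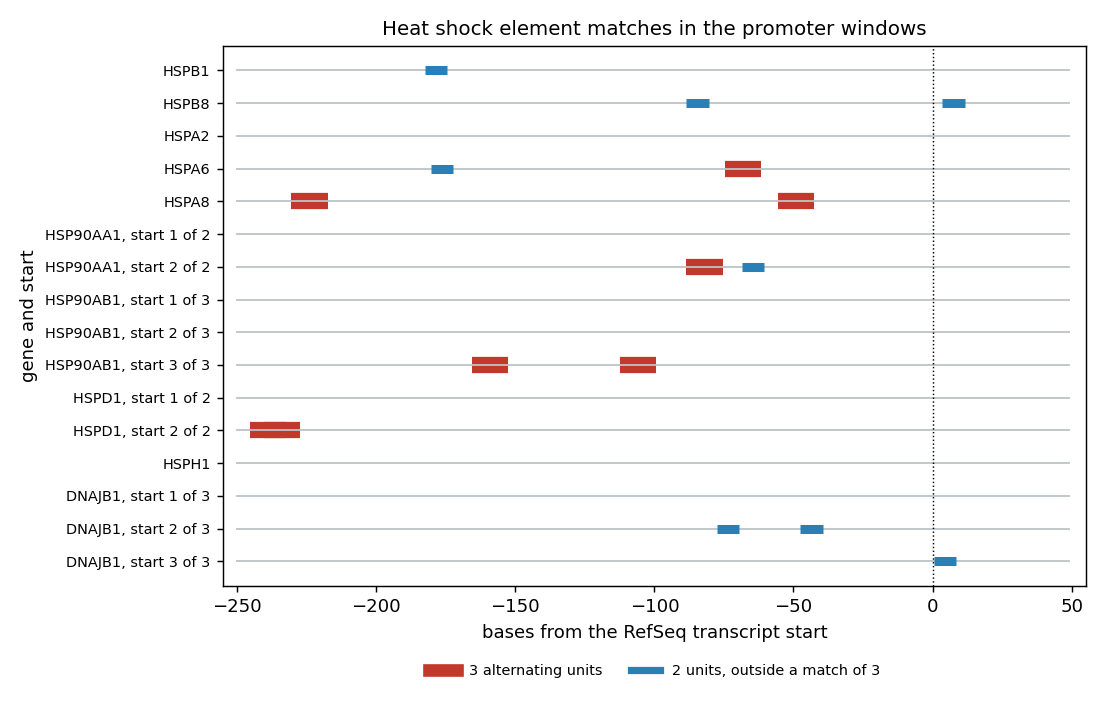
Matches of 3 (red) and of 2 (blue) heat shock units in the 300-base windows of the 10 genes, with every RefSeq start in a row of its own and distance from the start in bases on the horizontal axis. HSPA2 and HSPH1 show no match. The matches of HSP90AA1, HSP90AB1 and HSPD1 each belong to 1 of several starts, and those of DNAJB1 to 2 of 3.

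Beyond the members, 95 further genes of the chaperone system were listed and 83 were measured, by the brightest probe set of each gene. Of these, 19 were higher, 18 lower and 46 did not pass on the arrays labelled MALT1, a share of 44.6% beside 40.4% of all 11963 genes (21.1% higher and 19.2% lower). Their median log2 fold change was 0.09. The system as a whole thus held about as many changed genes in each direction as the array, and single branches are described by their counts.

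The HSP70 cofactors held more genes that rose than fell. Of the 11 on the array, 5 rose, 1 fell and 5 did not pass, with a median log2 fold change of 0.29. STUB1, the ubiquitin ligase that marks HSP70 and HSP90 clients for degradation, read 3180.4 ± 113 on the arrays labelled MALT1 against 901 ± 36.2 on those labelled mock (SD, n = 3 each; log2 fold change 1.82 ± 0.08 SE, limma adjusted p = 1.3e-04). BAG1, an exchange factor that links HSP70 to the proteasome, rose by 1.81 ± 0.11 SE on the log2 scale (adjusted p = 2.6e-04). BAG2, an inhibitor of STUB1, rose by 1.64 ± 0.13 SE (adjusted p = 6.4e-04). BAG4, a BAG protein that silences death receptors, went the other way, with a mean of 62.6 in the group labelled MALT1 against 149 in the one labelled mock and no overlap (log2 fold change −1.25 ± 0.14 SE, limma adjusted p = 0.00217).

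Other HSP70 and HSP40 genes went both ways. Of 9 other HSP70 and HSP110 genes, 2 rose, 2 fell and 5 did not pass, with a median of 0.35. With the replicate block 1 rose and 1 fell, and in a fit of the brighter probe sets alone 4 rose and 3 fell of 8. HSPA13, an HSP70 of the endoplasmic reticulum, fell (log2 fold change −1.01 ± 0.09 SE, limma adjusted p = 9.7e-04), and so did HSPA5, the major HSP70 of that compartment, at 8372 ± 76.8 against 11797 ± 936. HSPA9, the mitochondrial HSP70, rose (log2 fold change 0.52 ± 0.09 SE, limma adjusted p = 0.00964), as did HSPA14, an HSP70 bound to ribosomes (0.45 ± 0.09 SE). Of 22 HSP40 genes, 5 rose, 7 fell and 10 did not pass, with a median of −0.22. DNAJC12, an HSP40 that assists the aromatic amino acid hydroxylases, stood apart at 2051, 2182 and 2006 against 27.5, 30.5 and 29.6 (log2 fold change 6.11 ± 0.09 SE, limma adjusted p = 2.3e-05). DNAJA3, the mitochondrial HSP40, rose by 0.91 ± 0.11 SE. DNAJB4 fell by 1.14 on the log2 scale, and DNAJC3, an HSP40 of the endoplasmic reticulum, fell by 1.41.

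Few HSP90 cochaperones passed. None rose, 1 of the 10 on the array fell and 9 did not pass (limma), with a median of 0.15. At an unadjusted p under 0.05, 3 were higher and 2 lower. The 1 that fell was CHORDC1, an HSP90 partner that is itself induced by heat, at 2016 ± 113 against 5102 ± 282 (log2 fold change −1.34 ± 0.09 SE, limma adjusted p = 4.3e-04). The count depended on the settings: 2 rose and 1 fell after quantile normalization, 1 rose and 2 fell with a pseudocount of 16 or the floor, 1 rose and 1 fell without mock replicate 2, and 3 rose and 2 fell of 8 in a fit of the brighter probe sets alone. Of 4 organelle HSP90 and HSP60 partners, 2 rose, 1 fell and 1 did not pass, with a median of 0.13. TRAP1, the mitochondrial HSP90, rose by 1.17 ± 0.09 SE on the log2 scale (adjusted p = 5.3e-04), and HSP90B1, the HSP90 of the endoplasmic reticulum, read 5393 ± 757 against 7486 ± 361 (log2 fold change −0.48 ± 0.13 SE, limma adjusted p = 0.0432). The list held only 1 call under median centring, with the replicate block and without any of 5 single arrays, all but MALT1 replicate 3.

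The cytosolic chaperonin and its feeder prefoldin were split. Of the 12 subunits on the array, 3 rose, 3 fell and 6 did not pass, with a median of 0.21. The chaperonin subunit CCT6A read 9217 ± 844 against 17309.9 ± 1036 (SD, n = 3 each; log2 fold change −0.91 ± 0.11 SE, limma adjusted p = 0.00258). The subunit CCT5 rose instead (log2 fold change 0.32 ± 0.09 SE, limma adjusted p = 0.0463). CCT2, CCT3, CCT4, CCT7 and CCT8 did not pass, with log2 fold changes from −0.14 for CCT8 to 0.25 for CCT2 and CCT3. The prefoldin subunits PFDN5 and PFDN4 rose by 0.72 ± 0.10 SE and 0.63 ± 0.10 SE, while PFDN1 fell by 0.60. With the floor at the trp level, and in a fit of the brighter probe sets alone, 6 rose and 4 fell.

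Genes tied to heat shock factor 1 showed no common direction. Of 6 factors and regulators, 1 rose, 1 fell and 4 did not pass, with a median of 0.20. HSF1 itself read 134 ± 20.1 against 216 ± 29.5 (log2 fold change −0.69 ± 0.17 SE, limma adjusted p = 0.0276), and HSBP1, a negative regulator that binds it, read 8434 ± 912 against 5629 ± 361 (log2 fold change 0.58 ± 0.12 SE, limma adjusted p = 0.0147). Of these 2 calls, 1 or 0 remained in number when mock replicates or MALT1 replicates 2 or 3 were left out singly, and 1 with the replicate block. Of 13 other heat shock factor 1 targets, 2 rose, 4 fell and 7 did not pass, with a median of −0.02. Beside CHORDC1, SERPINH1, the collagen chaperone HSP47, fell by 1.13 and DNAJA1, a cytosolic HSP40, by 0.62 on the log2 scale, whereas IER5, an activator of heat shock factor 1, rose by 1.33 ± 0.10 SE. HSPA1A and HSPA1B, the main stress-inducible HSP70 genes, share all of their probe sets with each other and are not analysed here. The lists share genes, CHORDC1 among them.

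**Figure D4:**
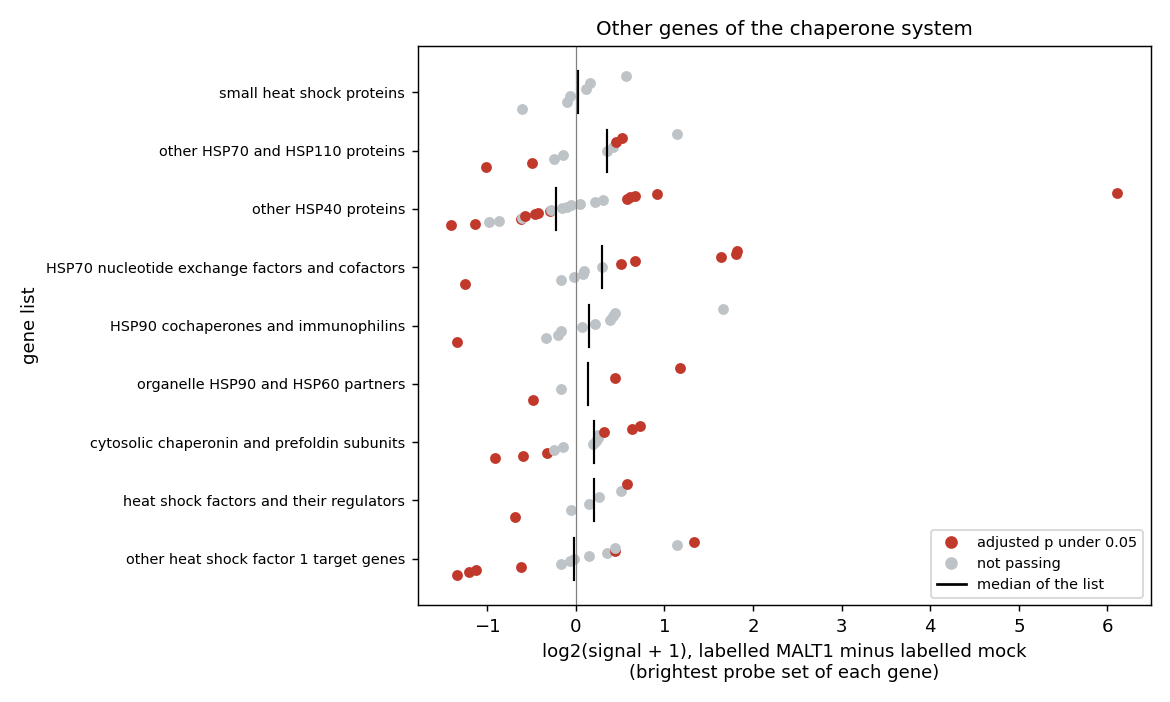
Difference in log2(signal + 1), labelled MALT1 minus labelled mock, for the genes of 9 lists of the chaperone system, by the brightest probe set of each gene, with medians as black lines. Genes that passed (red) lie on both sides of zero in all lists but those of the small heat shock proteins, where none passed, and of the HSP90 cochaperones, where only CHORDC1 passed. DNAJC12 lies far right at 6.11.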

How the data were processed

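The deposited values were linear intensities, 1 per probe set, already summarised over probes by the authors. The summary software and genome build are not given in the sources used here. Each array had been scaled to a mean of 500.1 to 500.2, judged from the values after trimming 2% of probe sets at each end. RNA was biotin-labelled and hybridised to Affymetrix arrays, per the labels. From these values log2(signal + 1) was computed, and 62 of 22277 probe sets, the controls, were left out. Of the remainder, 19064 had 1 gene symbol, 1043 several and 2108 none. Of the first kind, 19052 matched the RefSeq gene table of GRCh38.p14, which served for names. Differences were tested on all 6 arrays with limma 3.58.1 (lmFit and eBayes) in R 4.3.3, group as the only term, two-sided, adjusted by Benjamini-Hochberg over 22215 probe sets with a threshold of 0.05. The fit was also run on simulated data with independent noise and far fewer changed probe sets than passed here. No result is drawn from that run. The dim level is 17.6, the highest signal of the 3 trp control probe sets, and a fold against a group at or below it on all its arrays is a lower bound, with the brighter group's geometric mean divided by 17.6. Ratios of 2 genes used the brightest probe set of each and an exact permutation test. Of 6 pairs planned, the 4 with HSPA8 could not be computed, and the ratio of HSPB8 to HSPB1 is not given because HSPB8 has only a bound on the arrays labelled mock. Genes named from lists are up to 4 per list with the smallest adjusted p among those that passed. CRYAB, BAG3, HSPA1A, HSPA1B, LCP1 and PTPRC were added after their values were seen, as were the named epithelial markers and the chaperonin subunits other than CCT6A. The members and lists were chosen with earlier results of these data known. The 3 arrays per group limit the precision. Same-numbered arrays were not paired by their deviations, with correlations of 0.01 to 0.05.

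Alternatives were quantile normalization, median centring, a pseudocount of 16, a floor at the trp level, leaving out probe sets at or below the median signal, leaving out each array and a block on the replicate number. Probe sets whose ID ends in s_at or x_at can bind several transcripts, so that paralogs and processed pseudogenes of the HSP70, HSP90 and HSPD1 genes may share signal.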

Additional observations from a re-analysis of the deposited data

How the results depend on the processing

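No alternative changed the count of chaperone probe sets that passed by more than 1.5 times. It was 9 as reported, 9 after quantile normalization, 8 after median centring, 9 with a pseudocount of 16, 11 with the floor at the trp level and 10 of 15 with the dimmer probe sets left out, which removed both HSPA6 probe sets. That last fit called 7659 of all 11107 probe sets. Leaving out single arrays gave 8 to 9. With the replicate number as a block, 7 passed, and HSPA2 and the brighter HSPD1 probe set were lost. Over all probe sets the block gave 5808 calls against 7917. It is a hint at most, since the numbers are not known to pair the arrays. Which direction was the more frequent over all probe sets depended on scaling, with 3179 higher and 4193 lower after median centring, against 4130 and 3787 as deposited. Median centring moved the median of all probe sets to −0.05, and quantile normalization to −0.04, both against 0.08 as deposited. HSPB8, HSPB1, HSP90AB1, HSPH1 and the dimmer HSPD1 probe set passed in the same direction under all 12 alternatives. Of the 83 further chaperone genes, 26 passed with the block and 52 of 71 with the dimmer probe sets left out, beside 37 as reported. For all probe sets these fits gave 5808 of 22215 and 7659 of 11107. Signals at or below 17.6 limit HSPA6 and, on the arrays labelled mock, HSPB8.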

Other observations

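Grouped by the compartment in which their proteins work, a grouping made after the values were seen and therefore without a test, the chaperones of 2 organelles gave the following counts. Of 8 mitochondrial chaperone genes, 7 were higher on the arrays labelled MALT1, 0 were lower (limma, with 0 lower at an unadjusted p under 0.05 too) and 1 did not pass, with a median log2 fold change of 0.52, beside 21.1% of all genes higher. They were HSPD1, HSPE1, HSPA9, TRAP1, DNAJA3, GRPEL1, the exchange factor of HSPA9, at 2149.6 ± 357 against 1495 ± 59.7 (SD, n = 3 each), and DNAJC15, an HSP40 of the import motor, at 4019 ± 386 against 2631 ± 103. CLPB, a disaggregase, read 243 ± 67.0 against 268 ± 23.7 and did not pass. The count of 7 was 4 after median centring, with the replicate block and without each of MALT1 replicates 1 and 2 and mock replicates 1 and 2 in turn. With the dimmer probe sets left out all 8 genes remained and 7 were higher. In that fit 3797 of all 11107 probe sets were higher, a larger share than over all genes.

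Of 10 measured chaperone genes of the endoplasmic reticulum, 0 were higher, 5 were lower and 5 did not pass by limma, with a median of −0.49, beside 19.2% of all genes lower. At an unadjusted p under 0.05, 1 was higher and 6 were lower. The 5 were HSPA5, HSP90B1, HSPA13, DNAJC3 and SERPINH1, with log2 fold changes from −1.41 to −0.48. DNAJB9, an HSP40 that the unfolded protein response induces, read 646 ± 8.56 against 555 ± 22.6 (log2 fold change 0.22 ± 0.08 SE, limma adjusted p = 0.0938). The count of 5 was 3 with the replicate block, and 4 or 5 with any single array left out. With the floor at the trp level or the dimmer probe sets left out, 6 were lower and 1 was higher. In the latter fit all 10 genes remained, and 3862 of all 11107 probe sets were lower.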
